A study of Mus musculus with 8 samples.

Results

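The comparison described here is that of input RNA, the poly(A) RNA taken before any m6A immunoprecipitation, between N2a cells depleted of Emg1 and their controls. N2a is a mouse neuroblastoma cell line. Cells were transfected by lipofection with a small interfering RNA against Emg1 (siEmg1) or with a control one (siCtrl) and collected 48 h later, and both groups went through the same TRIzol extraction, oligo(dT) selection and stranded library preparation. All 16279 gene rows of the authors' deposited table were taken, and the table gave an adjusted p for 12807 of them, called tested genes below. The comparison rests on 4 of the 8 libraries of the series, 2 per group, and no label ties them to separate cultures, so p-values measure only the spread between these libraries, which may be technical. The labels name 1 control reagent and do not say whether siEmg1 was 1 sequence or a pool.

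EMG1 is a nucleolar methyltransferase that modifies a pseudouridine of 18S ribosomal RNA and travels with the small subunit processome, the particle in which the small ribosomal subunit is assembled. Poly(A) RNA-seq reads the relative abundance of each transcript, set by synthesis and decay together. The title of the series asks how EMG1 acts on m6A in mRNA without its enzymatic activity, and input RNA is the level against which such marks are read.

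The table holds 1 mean per gene, and the 4 normalized counts behind each mean were reconstructed from its digits. Totals were 58170067 and 42538080 counts in control libraries a and b and 28020363 and 26933504 in knockdown libraries a and b, where a is the deeper of each pair. The reconstructed counts were even in all 4 libraries for 88.4% of genes, so 1 count may not be 1 read, and totals are not numbers of reads. What this does to the deposited SE and p was not tested. Depth therefore separated the groups, and its part in the results was not tested. Rn45s, the ribosomal RNA precursor, held 25.0% and 25.1% of all counts in the control libraries and 18.7% of them in each knockdown library. Its sequence includes that of mature ribosomal RNA, and the part of oligo(dT) selection in this share was not tested. Over 11134 genes whose mean was 100 or more, the SD of the log2 ratio was 0.158 between the control libraries, 0.142 between the knockdown libraries and 0.346 to 0.360 between libraries of different groups. The median absolute log2 ratio was 0.087 between the control and 0.067 between the knockdown libraries, so the deeper controls lay further apart. The 19 of 20 neuroblastoma identity markers found in the table summed to 110210 and 112938 normalized counts in control and 116275 and 112223 in knockdown libraries, and 18 of them had a mean of at least 100. The most abundant were Prph and Tubb3, neither called, and Stmn2, which fell. Of the 19, 9 rose and 4 fell, beside 32.6% of all tested genes called. Insm1 (1.18 ± 0.11) and Phox2a (0.59 ± 0.07), neuronal transcription factors, rose, and Th (-1.06 ± 0.32) fell. The glial sum was 884 and 822 in control and 747 and 730.5 in knockdown libraries. Epithelial markers summed to 67.4 and 43.4 in control and 42.9 and 60.4 in knockdown, endothelial markers to 632 and 665 against 621 and 702, and muscle and erythroid markers, carried by Myh3, to 4772 and 4354 against 4840 and 5027. The fibroblast sum of 15480 to 16066 in control and 23060 to 23312 in knockdown was carried by Fn1, with Pdgfrb moving the other way. The macrophage and leukocyte sum was 1137 to 1230 in control and 696 to 746 in knockdown, with 4 of its 10 markers in the table, and was carried by Cd74. The part of these marker sums in the results was not tested.

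Emg1 stood at 2081 and 1977 in the control libraries and 654 and 573 in the knockdown libraries. Both knockdown libraries lay far below both controls. In the authors' deposited table its log2 fold change was -1.73 ± 0.11 (SE), with an adjusted p of 3.37e-54. The table names no direction, and this sign is the reason its fold changes are read as siEmg1 over siCtrl, so the fall of Emg1 is no independent check of the labels. Below, normalized counts are given for control libraries a and b and then for knockdown libraries a and b. Log2 fold changes with SE and adjusted p (Wald test of DESeq2, Benjamini-Hochberg) are those of the authors' deposited table, and "rose" and "fell" mean an adjusted p under 0.05 there. In bulk RNA, fewer cells of a kind and less RNA per cell cannot be told apart.

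By this rule 4174 of 12807 genes changed (32.6%), 2187 of them higher (17.1%) and 1987 lower (15.5%). The normalized counts of the 2 groups overlapped in none of the 4174 changed genes, and they did not overlap in 9215 of all tested genes (72.0%). A change larger than 1.5-fold passed its own test at an adjusted p under 0.05 for 89 genes (0.695%), of which 21 were higher and 68 lower. At the other end, the 95% interval of the fold change lay between -0.32 and 0.32 on the log2 scale for 3273 genes (25.6%), and 217 of these were among the changed genes. Eef2, the translocation factor of the ribosome, was one of the abundant genes that did not pass, at 96628 and 98306 against 99841 and 99395 normalized counts.

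**Figure D1:**
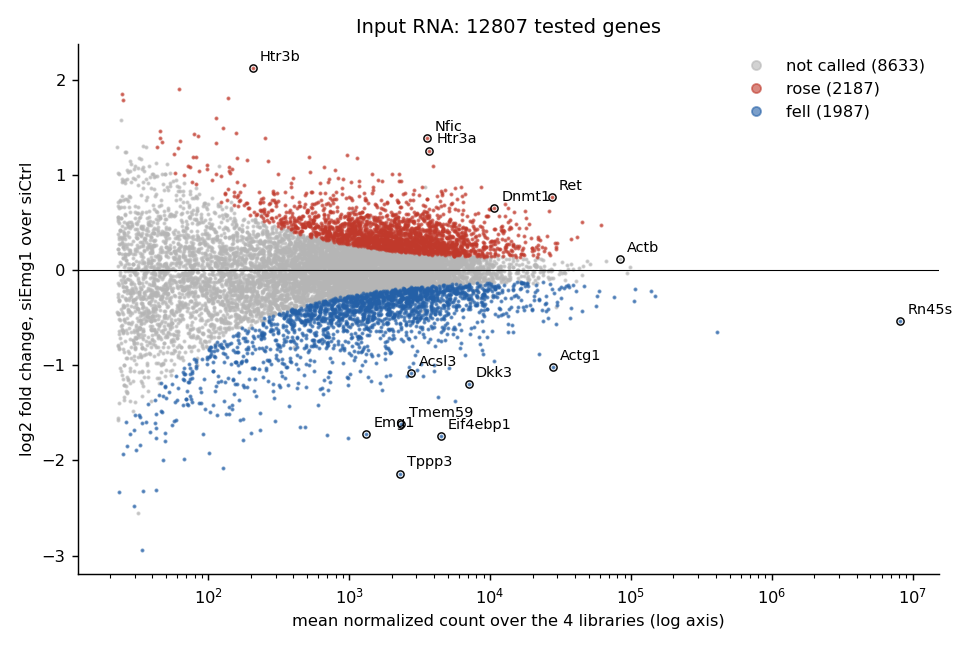
Each point is 1 of the 12807 tested genes, with its mean normalized count over the 4 libraries on a log x axis and its log2 fold change, siEmg1 over siCtrl, on the y axis; red points rose (2187), blue points fell (1987) and grey points were not called. The largest changes of well-counted genes lie below the line, where Tppp3 stands at -2.14, and Actb and Actg1 stand apart although both are abundant.

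The falling genes with the lowest Wald statistics are given first. Eif4ebp1, an inhibitor of cap-dependent translation, stood at 6937 and 6800.1 against 1986 and 2123 normalized counts and Tppp3, a tubulin-binding protein, at 3484 and 3957 against 830.1 and 859. For Tmem59, a membrane protein of the Golgi and endosomes, the counts were 3358 and 3727 against 1166 and 1138, and the authors' deposited table gave a log2 fold change of -1.62 ± 0.09 (adjusted p 7.39e-72). Control and knockdown libraries were far apart for all 3 genes, which their choice by Wald statistic makes likely in advance. Dkk3, a secreted glycoprotein of the Dickkopf family, stood at 9759 and 9813 against 4267 and 4257, with a log2 fold change of -1.20 ± 0.06 in the authors' deposited table (adjusted p 9.08e-91). Ssr3, a subunit of the translocon-associated protein complex, stood at 13572 and 14374 against 7168 and 7255 and fell by 0.95 ± 0.06 on the log2 scale in the authors' deposited table. H13, the signal peptide peptidase that cleaves leftover signal peptides in the ER membrane, stood at 5444 and 5331 against 2581 and 2604 and fell by 1.06 ± 0.07 there. H1f0, a linker histone whose mRNA is polyadenylated, stood at 28821 and 29171 against 15919 and 15658 (-0.88 ± 0.05).

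On the rising side, Htr3a, a subunit of the serotonin-gated cation channel, stood at 2185 and 2185 against 5139.8 and 5297 normalized counts. Its partner subunit Htr3b was far lower in level, at 83.2 and 70.5 against 313 and 360.0, and had the largest rise of genes counted at a mean of 100 or more, 2.12 ± 0.24 on the log2 scale in the authors' deposited table (adjusted p 1.14e-16). Nfic, a transcription factor of the nuclear factor I family, stood at 1893 and 2084 against 5362 and 5032 and Gse1, a partner of the CoREST complex, at 2469 and 2533 against 5453 and 5253. In each of these 4 genes the lower knockdown library was above the higher control library, as in every gene called higher. Ret, the receptor of glial cell line-derived neurotrophic factors, was among the most abundant, at 20474 and 19939 against 34230.0 and 34619, and rose by 0.77 ± 0.05 in the authors' deposited table (adjusted p 7.95e-55). Frmd4a, a scaffold of cell polarity, stood at 6223 and 5878 against 10846 and 11307, and Tenm3, a synaptic adhesion protein of the teneurin family, at 4887 and 4745 against 8458 and 8366.

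**Figure D2:**
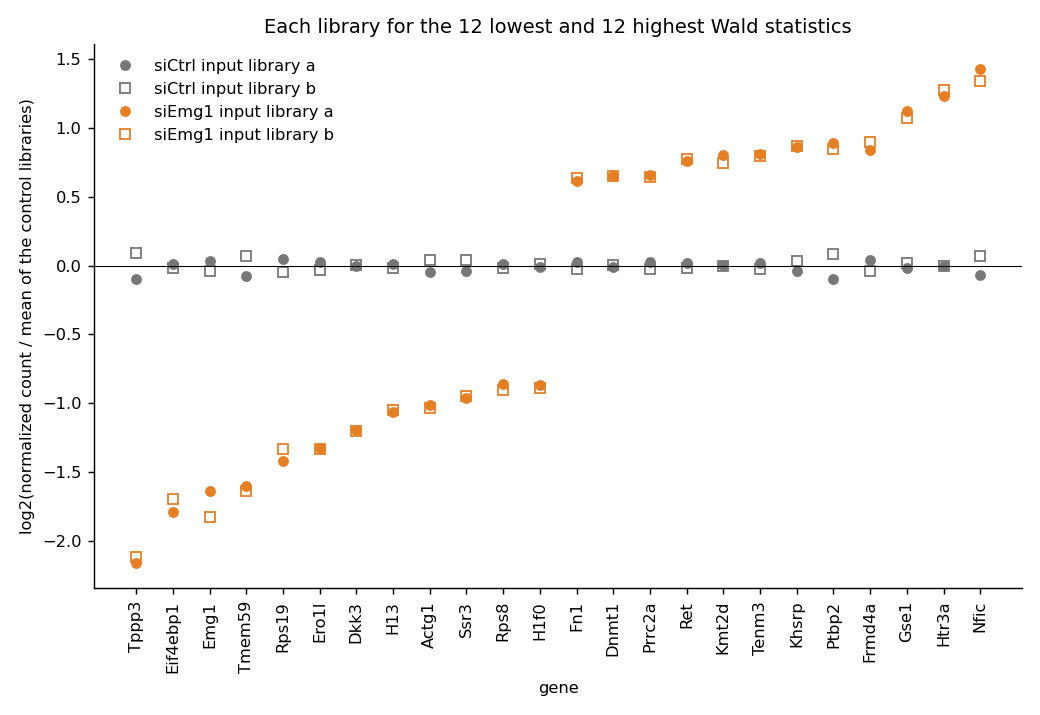
For the 12 genes with the lowest and the 12 with the highest Wald statistic (x axis), each marker is 1 library's normalized count over the mean of the control libraries, as log2 (y axis); grey markers are control and orange ones knockdown libraries. The markers of a group lie close together, and Emg1 has the widest gap between knockdown libraries of the falling set, at 654 and 573 normalized counts.

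The remaining large changes included a ligand and its receptor. Adm, which encodes the vasodilator peptide adrenomedullin, stood at 205 and 208 against 55.5 and 42 and Calcrl, the receptor that binds it, at 161 and 237 against 60.6 and 78.8. Both fell, by 2.08 ± 0.32 and 1.51 ± 0.32 in the authors' deposited table. Pparg, a nuclear receptor of lipid storage, stood at 371 and 342 against 85.8 and 137 and Lipa, the lysosomal acid lipase, at 540.3 and 551 against 184 and 221, with falls of 1.68 ± 0.25 and 1.43 ± 0.18 there. Sparcl1 (-1.71 ± 0.24), Gas6 (-1.52 ± 0.33), the ligand of the TAM receptors, and Reck, an inhibitor of matrix metalloproteases at 336 and 358 against 121 and 123, also fell. Of the genes that rose, Lcn2, an iron-siderophore binding protein, stood at 71.3 and 50.6 against 192 and 239 and Cp, the ferroxidase ceruloplasmin, at 56.8 and 56 against 174 and 168. Insm1, a zinc finger factor of neuroendocrine cells, stood at 699 and 690.5 against 1665 and 1489.9 and rose by 1.18 ± 0.11, and Meg3, an imprinted noncoding RNA, stood at 132 and 148 against 310.4 and 423 and rose by 1.39 ± 0.23 in the authors' deposited table. Acp1, a small tyrosine phosphatase, rose by 1.21 ± 0.12 and Nek3, a kinase of the NIMA family, by 1.19 ± 0.15. Low counts lie behind several of the 25 largest rises, such as Ier5l at 51.5 and 77.7 against 182 and 142 and Prr7 at 71.3 and 127 against 219.5 and 223, whose control libraries differ from each other by more than those of the abundant genes. Hist1h2af, at 87.2 and 81.3 against 262 and 194, belongs to a family of near-identical histone genes between which reads can be split, so its value is uncertain.

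In the 15 most abundant transcripts no change reached 2-fold. Lars2, mitochondrial leucyl-tRNA synthetase, had a log2 fold change of -0.66 ± 0.19 in the authors' deposited table (adjusted p 0.00367), and Rn45s one of -0.54 ± 0.06. The mean of Lars2 was 406675, above that of Eef1a1 (147944). Whether all reads counted for Lars2 come from its mRNA was not tested, so its value is uncertain. Eef1a1 stood at 159757 and 164206 against 132164 and 135651 and Gnb2l1, the ribosome-bound protein RACK1, at 113698 and 119973 against 92766 and 94474, and they fell by 0.27 ± 0.05 and 0.32 ± 0.05. Of the 15 most abundant genes Map1b, a microtubule-associated protein of growing axons, rose, at 53802 and 49618 against 72166 and 71251 and a log2 fold change of 0.47 ± 0.05. The 2 cytoplasmic actins parted: Actg1 stood at 36212 and 38381 against 18533 and 18191 and fell by 1.02 ± 0.05 (adjusted p 9.48e-85), while Actb stood at 76474 and 83509 against 88784 and 84183, with a log2 fold change of 0.11 ± 0.06 in the authors' deposited table (adjusted p 0.104, 95% interval 0.00 to 0.22). The difference between the 2 fold changes was not tested. Actins, tubulins and Eef1a1 have processed pseudogenes that can share their reads, so these values are uncertain where the authors' counting could split them.

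Members of 86 gene lists were then followed. In 35 of them the median log2 fold change of the tested members was below 0, beside a median of -0.00 over all tested genes. List counts moved with single libraries. Of 63 counts between 1 and 5 by limma on all 4 libraries, 44 moved by more than 1.5 times when limma was run without 1 of them, as did 52 of the 103 larger ones. The lists were drawn up with earlier results of these data known, and their counts are given beside the shares of all tested genes, 17.1% higher and 15.5% lower. Those shares depend on level. In the bin of genes with the lowest means 2.30% rose and 7.14% fell, and in the bin with the highest 30.7% rose and 21.6% fell. List members were not matched to all tested genes by level, and the part of level in the list counts was not tested.

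**Figure D3:**
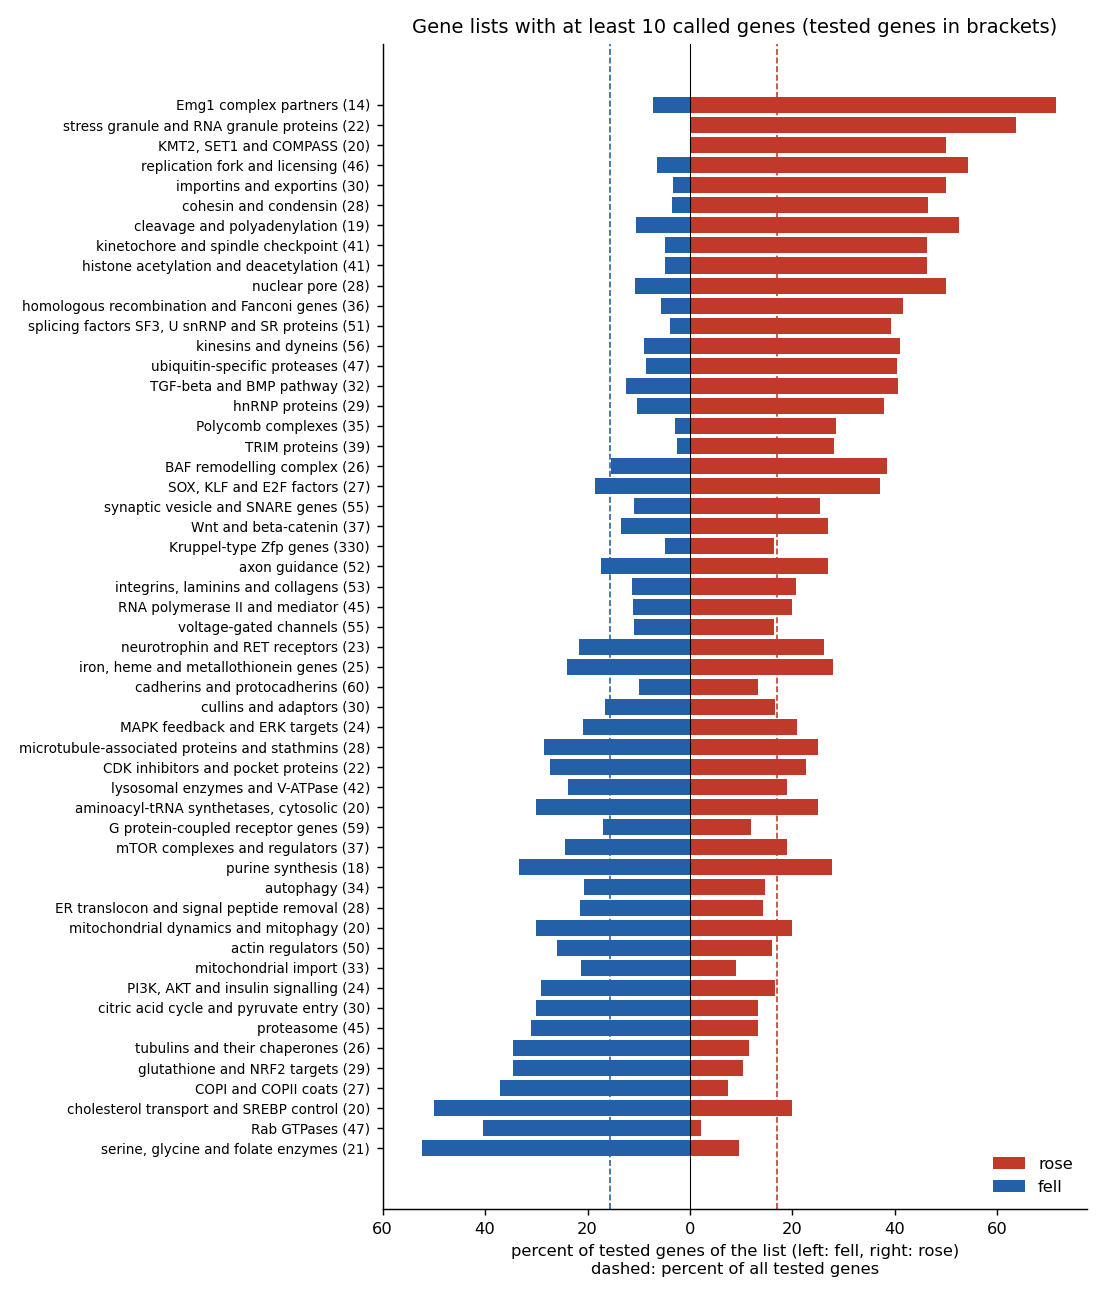
Bars give the percent of tested members that rose (red, right) and fell (blue, left) for the 53 lists with at least 10 called genes, with the number of tested members in brackets. The dashed lines mark the share of all tested genes, 17.1% higher and 15.5% lower, which is not matched for level. EMG1's partners and granule proteins extend furthest to the right, and serine and folate enzymes, cholesterol transport and Rab genes furthest to the left.

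EMG1 works with NOP14, NOC4L, UTP14 and other small subunit processome proteins, and 10 of 14 of these partners rose while 1 fell, with a median log2 fold change of 0.25. Nat10, the acetyltransferase of 18S ribosomal RNA, stood at 2258 and 2066 in the control libraries and 3071 and 3035 in the knockdown libraries. It rose by 0.50 ± 0.08 in the authors' deposited table (adjusted p 1.34e-08). Nop56, a core protein of box C/D snoRNPs, stood at 7303 and 6643 against 8893 and 8952 and Bms1, the GTPase of the processome, at 3452 and 3134 against 4216 and 4186, and both rose (0.36 ± 0.06 and 0.35 ± 0.07). Nop14 itself, the partner that binds EMG1 directly, stood at 3349 and 3040.3 against 3787 and 3710.2, with a log2 fold change of 0.23 ± 0.08 (adjusted p 0.00977). The paralogs Utp14a and Utp14b moved apart, at 1018 and 827 against 1156 and 1288 and 1097 and 824 against 775 and 699, with log2 fold changes of 0.40 ± 0.13 and -0.38 ± 0.15 in the authors' deposited table. Utp14b arose from Utp14a and their reads may be shared, so both are uncertain. Krr1 (0.17 ± 0.07), Imp3 (-0.15 ± 0.11) and Rcl1 (-0.06 ± 0.08) were not called. Limma on all libraries called 11 of the 14 higher, and 6 without knockdown library a, where Fbl, Noc4l, Nop14 and Nop58 were among those no longer called. Without knockdown library b, Fbl, Imp4 and Utp14b were not called, and Utp14b was also not called without control library a.

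The RNA polymerase I list held 7 rising and 2 falling genes of 18. Nolc1 and Tcof1, related nucleolar phosphoproteins that bind polymerase I, stood at 4809 and 4445 against 7146 and 7199.8 and 2418 and 2404 against 3729 and 3574 and rose by 0.63 ± 0.06 and 0.60 ± 0.07. Ubtf, which bends the promoter of the ribosomal RNA genes, rose by 0.41 ± 0.06, whereas Rrn3, the initiation factor that recruits the polymerase, stood at 3427 and 3384 against 2419.8 and 2391 and fell by 0.50 ± 0.07 in the authors' deposited table (adjusted p 2.71e-10). The Rn45s row, which can also count mature ribosomal RNA left after oligo(dT) selection, was lower. It is therefore no measure of the precursor alone. Factors of polymerase I were called in both directions. For polymerase III, 6 of 22 rose and 3 fell (by limma 8 higher, and 4 without knockdown library a), with Gtf3c1, the largest subunit of TFIIIC, at 3483 and 3386 against 4857 and 4895, and Maf1, the repressor of this polymerase, at 2855 and 2881 against 1945 and 2052 and falling by 0.52 ± 0.08. Of the RNA exosome and its cofactors 5 of 19 rose and 2 fell, with the catalytic subunits Exosc10 and Dis3 rising by 0.49 ± 0.07 and 0.47 ± 0.09.

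Genes that make and process messenger RNA came next. Polr2a, the largest subunit of RNA polymerase II, stood at 7834 and 7792 against 11975 and 12355 and rose by 0.64 ± 0.05 (adjusted p 1.85e-29), while Polr2k, a small subunit shared by all 3 nuclear polymerases, stood at 185 and 242 against 73.2 and 86.7 and fell by 1.42 ± 0.29 in the authors' deposited table. Over polymerase II and Mediator, 9 of 45 rose and 5 fell (by limma 11 higher, and 7 without knockdown library b). In the Integrator complex, which cleaves noncoding and promoter-proximal transcripts, 4 of 15 rose and none fell, led by its largest subunit Ints1 at 3242 and 3659 against 6409 and 5975 (0.84 ± 0.08). Nelfe, part of the negative elongation factor complex that holds polymerase II near promoters, stood at 1554 and 1459 against 492 and 394 and was among the largest falls (-1.76 ± 0.13). For cleavage and polyadenylation, 10 of 19 rose and 2 fell, with Cpsf1, the largest subunit of the specificity factor, at 4950.3 and 5065 against 7057 and 6861, and Clp1, a kinase of the cleavage factor, at 877 and 849.6 against 669 and 678 and falling by 0.36 ± 0.12.

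Decay and silencing factors followed. In nonsense-mediated decay 6 of 18 rose and none fell, and the helicase Upf1 stood at 3167 and 3118 against 4638 and 4428 and rose by 0.53 ± 0.07 (adjusted p 5.72e-13). By limma 8 of that list were higher, and 5 without knockdown library b. Of the RNA interference machinery 9 of 17 rose and none fell, with the GW182 proteins Tnrc6b (3446 and 3523 against 5513 and 5571), Tnrc6c (2910.5 and 3019 against 4522 and 4307) and Tnrc6a (4056 and 4003 against 4784 and 4985) all higher. Ago2, the slicing Argonaute, rose by 0.28 ± 0.06. Stress and RNA granule proteins had 14 of 22 higher and none lower, with a median of 0.25. Fmr1, an RNA-binding repressor of translation, stood at 1445 and 1777 against 3068 and 3085 and rose by 0.94 ± 0.10 in the authors' deposited table (adjusted p 1.21e-19), and Ubap2 and Atxn2l rose by 0.67 ± 0.07 and 0.45 ± 0.06. Edc4, the scaffold of decapping, stood at 2847 and 2878 against 4317 and 4238 (0.58 ± 0.07) and Xrn1, the exonuclease that follows it, at 1027 and 951 against 1357 and 1369 (0.46 ± 0.10). Larp1, which binds mRNAs with a terminal pyrimidine tract, rose by 0.42 ± 0.05, and the deadenylase-recruiting Btg2 fell by 0.55 ± 0.15.

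Splicing genes showed members moving in opposite directions. Of 51 core splicing factors 20 rose and 2 fell (by limma 23 higher, and 13 without knockdown library a). Sf3a2, a subunit of the U2 particle, stood at 1318 and 1330.4 against 2669.6 and 2667 and rose by 1.01 ± 0.08 in the authors' deposited table (adjusted p 2.62e-31). Prpf19, the ubiquitin ligase of the spliceosome, stood at 7242 and 7111 against 4701 and 4969 and fell by 0.57 ± 0.06 (adjusted p 4.21e-18). In the hnRNP list 11 of 29 rose and 3 fell (by limma 13 higher, and 7 without knockdown library a). Ptbp1, the repressor of neuronal exons in non-neuronal cells, stood at 10342 and 10722 against 7454 and 7639, and its neuronal paralog Ptbp2 at 4155 and 4712 against 8216 and 7964. Ptbp1 was lower by 0.48 ± 0.06 (adjusted p 9.40e-16) and Ptbp2 higher by 0.87 ± 0.07 in the authors' deposited table (adjusted p 2.56e-32). Khsrp, a KH-domain protein of splicing and decay, stood at 3856 and 4059.8 against 7199 and 7244 and rose by 0.87 ± 0.06.

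Genes of translation supply were split. Cytosolic aminoacyl-tRNA synthetases had 5 of 20 higher and 6 lower. By limma 6 were higher and 7 lower, against 3 and 2 without knockdown library a and 1 higher without b. Vars, the valyl enzyme, stood at 7534 and 7769 against 12115 and 11772 (0.64 ± 0.06) and Sars, the seryl enzyme, at 23074 and 21823 against 16436 and 17358 (-0.41 ± 0.05). Of the enzymes that make serine, glycine and folate carbon units, 11 of 21 fell and 2 rose, with a median of -0.20. Psat1 and Phgdh, which make serine from a glycolytic intermediate, stood at 20018 and 19518 against 14506 and 15025 and 10030.1 and 10535 against 7449 and 7524 and fell by 0.42 ± 0.05 and 0.46 ± 0.06 in the authors' deposited table. Mtr, methionine synthase, fell by 0.58 ± 0.12, and Ahcy, which clears S-adenosylhomocysteine, stood at 3339 and 3302 against 2203 and 2307 and fell by 0.56 ± 0.08. The cytosolic enzyme Shmt1 went the other way, at 1951 and 1865 against 2596 and 2662 (0.46 ± 0.08, adjusted p 1.90e-07). Among amino acid transporters 3 of 21 rose and 4 fell (by limma 6 higher and 7 lower, 3 and 2 without knockdown library a and 2 higher without b), with the lysosomal exporter Slc36a1 at 3361 and 3321 against 5536 and 5492 (0.72 ± 0.06) and the cationic transporter Slc7a3 at 2373 and 2498 against 1562 and 1613 (-0.62 ± 0.09).

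Lipid lists had more members lower than higher. In fatty acid synthesis and desaturation 8 of 23 fell and 1 rose. The riser was Fasn, fatty acid synthase, at 11703 and 12275 against 16368 and 16294 (0.45 ± 0.05, adjusted p 2.15e-15). Acsl3, which activates fatty acids at lipid droplets, stood at 3806 and 3668 against 1794 and 1742 and fell by 1.08 ± 0.08 in the authors' deposited table (adjusted p 7.59e-42), and the desaturase Scd2 stood at 43974 and 42612 against 30337 and 30838 and fell by 0.50 ± 0.05. Lpin1, the phosphatidate phosphatase, stood at 958 and 1019 against 469 and 473 and was the largest fall (-1.07 ± 0.13) among 7 lower and 1 higher of 27 phospholipid and triglyceride genes. Cholesterol transport and SREBP control had 10 of 20 lower and 4 higher, with a median of -0.24. Stard4, a sterol carrier, stood at 2012 and 2086 against 1289 and 1337 and Insig1, which retains SCAP in the ER, at 1798 and 1997 against 1246 and 1182. Both fell, while the endocytic receptor Lrp1 rose by 0.52 ± 0.07 in the authors' deposited table.

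In central metabolism, the cytosolic NADP-dependent dehydrogenase Idh1 stood at 3702 and 3427 against 1759 and 1761 and fell by 1.02 ± 0.08 (adjusted p 2.62e-34). This was the largest change in a list of citric acid cycle and pyruvate entry genes that also holds cytosolic enzymes. Of the 30 members 9 fell and 4 rose (by limma on all libraries 11 lower and 4 higher, and fewer of each when knockdown library a or b was left out). Mdh1, the cytosolic malate dehydrogenase, stood at 19433 and 19527 against 14869 and 14852 (-0.39 ± 0.05). G6pdx, the entry enzyme of the pentose phosphate pathway, stood at 5723 and 5193 against 3585 and 3616 and fell by 0.60 ± 0.07 in the authors' deposited table. In purine synthesis 5 of 18 rose and 6 fell (by limma 6 higher, and 3 without knockdown library b). Pfas (0.44 ± 0.07) and Adsl (0.33 ± 0.06), enzymes of the de novo route, rose, and Adssl1 (276 and 262 against 141 and 102, -1.14 ± 0.25), an adenylosuccinate synthase of that route, fell. The salvage enzyme Hprt (-0.35 ± 0.07) and the adenylate kinase Ak1 (-0.55 ± 0.07) fell too. Glutathione and NRF2 target genes had 10 of 29 lower and 3 higher (by limma 10 lower, 5 without knockdown library a and 6 without b), with Txnrd1 higher (0.30 ± 0.05) and Hmox1 lower (-0.41 ± 0.09). Of 20 tested genes of mitochondrial dynamics and mitophagy 6 fell and 4 rose (by limma 6 higher, and 3 without knockdown library a). The fallers included Bnip3 at 2461 and 2552 against 1375 and 1356, Fundc1 at 626 and 757 against 288 and 302, and Pink1 at 662 and 659.8 against 363 and 363. Ppargc1b, a coactivator of mitochondrial genes, was a riser, at 369 and 405 against 545 and 536 (0.48 ± 0.16, adjusted p 0.00839). Pam16, a subunit of the mitochondrial import motor, stood at 871 and 972 against 341 and 405 and fell by 1.31 ± 0.15 in the authors' deposited table.

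Protein degradation genes were called in both directions. The proteasome had 14 of 45 subunit and assembly genes lower and 6 higher (by limma 17 lower, 9 without knockdown library a and 10 without b, and 6 higher, 10 without control library b and 3 without knockdown library b). Psmd5, an assembly chaperone, stood at 3276 and 3306 against 2261 and 2276 (-0.54 ± 0.07), and Adrm1, its ubiquitin receptor, at 2663 and 2773 against 4143 and 3889 (0.56 ± 0.07). Ubiquitin-specific proteases showed 19 of 47 higher and 4 lower (by limma 22 higher, 14 without knockdown library a and 13 without b), led by Usp19 (2764 and 2993 against 4209 and 4315) and Usp10 (4623 and 4673 against 6655 and 6159). The interferon-induced Usp18 stood at 332 and 369 against 204 and 189 and fell by 0.83 ± 0.20 in the authors' deposited table. TRIM ubiquitin ligases had 11 of 39 higher and 1, Trim66 (-0.44 ± 0.14), lower (by limma 15 higher, and 9 without either knockdown library). Cullins and their adaptors had 5 of 30 higher and 5 lower (by limma 6 higher, and 3 without either knockdown library). Autophagy genes had 5 of 34 higher and 7 lower (by limma 8 lower, and 4 without knockdown library b). Lysosomal enzymes and V-ATPase subunits had 8 of 42 higher and 10 lower (by limma 11 higher and 12 lower, and 5 and 7 without either knockdown library).

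Of the Rab GTPases, switches that direct vesicles to their targets, 19 of 47 fell and 1 rose, with a median of -0.23. Rab9, of the late endosome to Golgi route, stood at 1572 and 1688 against 931 and 925, Rab8a, of the exocytic route, at 2386 and 2341 against 1686 and 1645 and Rab1, of the ER to Golgi route, at 9554 and 11155 against 7948 and 7486. They fell by 0.81 ± 0.10, 0.51 ± 0.08 and 0.42 ± 0.07 in the authors' deposited table. The riser was Rab3a, the Rab of synaptic vesicles, at 1163 and 1339 against 1529 and 1639.7 (0.34 ± 0.11, adjusted p 0.00547). COPI and COPII coat genes had 10 of 27 lower and 2 higher (by limma 11 lower, and 7 without knockdown library a). The GTPases Sar1a (5946 and 6184 against 3674 and 3931), Arf5 (3499.7 and 3931 against 2659 and 2591) and Arf1 (23708 and 25288 against 19708 and 19734) were lower, and the coat subunit Sec31a (5896 and 5645 against 7835 and 7700.3) was higher (0.43 ± 0.06).

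Chromatin regulators were followed by complex. The KMT2 and SET1 methyltransferases and their COMPASS partners had 10 of 20 higher and none lower. Kmt2d stood at 4661 and 4653 against 8122 and 7825 and rose by 0.78 ± 0.06 (adjusted p 8.34e-36), and Kmt2b and Setd1b rose by 0.59 ± 0.08 and 1.03 ± 0.15 in the authors' deposited table. Histone acetylation and deacetylation genes had 19 of 41 higher and 2 lower, with a median of 0.22. Hdac2, a class I deacetylase, was one of the fallers, at 11037 and 10279.7 against 6025 and 6398, and fell by 0.78 ± 0.06 (adjusted p 5.54e-33), while the bromodomain protein Brd2 stood at 10636 and 10353 against 14115 and 13921 and rose by 0.42 ± 0.05. In the BAF remodelling complex 10 of 26 rose and 4 fell. Its ATPase Smarca2 fell, at 1618 and 1780.5 against 1055 and 1062, and the scaffolds Smarcc2 (4460.2 and 4268 against 6818 and 6835) and Smarcc1 (8084 and 7539 against 11682 and 11464) and the DNA-binding subunit Arid1b (1538 and 1814 against 2831 and 2675) rose. DNA methylation genes had 8 of 17 higher and none lower (by limma 9 higher, and 5 without knockdown library b). Dnmt1, the maintenance enzyme, stood at 8265 and 8340.2 against 13038 and 13028 (0.65 ± 0.05, adjusted p 2.46e-32) and the de novo enzyme Dnmt3a at 3021 and 3105 against 4161 and 4480.1 (0.50 ± 0.07).

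DNA replication genes had 25 of 46 members higher and 3 lower, with a median of 0.21. Pole, the catalytic subunit of the leading-strand polymerase, stood at 3407 and 3138 in the control libraries and 5574 and 5954 in the knockdown libraries. Pold1, of the lagging-strand polymerase, stood at 2091 and 2549 against 4289 and 4181 and Timeless, a fork protection protein, at 1416 and 1473 against 2485 and 2502. They rose by 0.82 ± 0.07, 0.87 ± 0.09 and 0.79 ± 0.08 in the authors' deposited table. Orc2, of the origin recognition complex, stood at 3891 and 3442 against 2765 and 2538 and fell by 0.47 ± 0.08. Many replication promoters carry sites of the E2F factors, and the letters TTTGGCGC or TTTCCCGC on either strand were searched in the RefSeq promoter windows (GRCm38.p6, 250 bases before to 50 after each start). They were present in 13 of 37 tested replication genes with a window (35.1%), beside 3.50% of 10128 tested genes and 1.80% of all 27025 genes with a window. Of the 22 risers of the list with a window, 8 carried them. The following 30-base stretches, printed on the strand of the gene, show them in capitals for the 5 risers of the list with the smallest adjusted p among those that carry them.
Pold1 (chr7:44548766-44548795, minus strand): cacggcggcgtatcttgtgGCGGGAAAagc
Mcm8 (chr2:132816161-132816190, plus strand): gcagaagcgcgtcatagacGCGCCAAAaaa
Mcm3 (chr1:20820275-20820304, minus strand): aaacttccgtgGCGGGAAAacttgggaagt
Pola1 (chrX:93632275-93632304, minus strand): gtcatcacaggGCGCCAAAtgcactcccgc
Mcm7 (chr5:138172030-138172059, minus strand): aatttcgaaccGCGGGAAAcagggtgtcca

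Mcm8, a helicase of the MCM family that acts in recombination, stood at 1029 and 1047 against 1978 and 1831, the helicase subunits Mcm3 and Mcm7 at 7322 and 6947 against 9631 and 10066 and 6822 and 6477 against 8776 and 8989, and Pola1, the polymerase that starts each strand, at 1904 and 1690.1 against 2882 and 2829. Each was higher in both knockdown libraries than in either control, as was every gene called higher, so this adds nothing to the calls. Across all 10128 tested genes with a window, the letters were present in 354, of which 30.2% rose and 8.19% fell, beside 17.0% and 15.7% of the 9774 genes without them. Counted the other way, 6.05% of rising, 1.85% of falling and 3.21% of uncalled genes carried them. A match describes letters in the window and is no evidence of binding. E2f1, the activating factor, stood at 3345 and 3552 against 2589 and 2657 and E2f6, a repressing one, at 1374 and 1325 against 762 and 688, and both fell, by 0.39 ± 0.08 and 0.90 ± 0.11 in the authors' deposited table.

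In the other lists of chromosome upkeep more members rose than fell. Homologous recombination and Fanconi genes had 15 of 36 higher and 2 lower, led by Mdc1, the DNA damage scaffold, at 4073 and 3604 against 6565 and 6766 (0.80 ± 0.07). Rad51c, a recombination mediator, stood at 703 and 714 against 411 and 402 and fell by 0.80 ± 0.14 in the authors' deposited table. Cohesin and condensin had 13 of 28 higher and 1 lower (by limma 14 higher, and 9 without either knockdown library), with the condensin ATPase Smc4 at 13765 and 13519 against 18798 and 18312. Kinetochore and checkpoint genes had 19 of 41 higher and 2 lower. Cenpe, the kinetochore kinesin, stood at 4471 and 3870.0 against 5748 and 6201 (0.52 ± 0.08) and Cenpa, the centromeric histone, at 2526 and 2679 against 2006 and 2089 (-0.35 ± 0.08). Of the nuclear pore 14 of 28 rose and 3 fell, with Nup214 at 2017 and 1996 against 3303 and 3405 and Nup155 at 5041 and 5079 against 7585 and 7664. Importins and exportins had 15 of 30 higher and 1 lower (by limma 15 higher, and 8 without knockdown library b). The faller was Nutf2, which carries Ran into the nucleus, at 972 and 853 against 434 and 384 (-1.16 ± 0.14, adjusted p 3.71e-14). The nuclear lamins Lmna (3863 and 4251 against 6755 and 6498), Lmnb1 (2867 and 2867 against 4582 and 4393) and Lmnb2 (2192 and 2413 against 3427 and 3135) rose by 0.71 ± 0.07, 0.65 ± 0.07 and 0.51 ± 0.08 in the authors' deposited table.

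A second set of letters was taken from the start of transcripts. mRNAs of the translation machinery begin with a C followed by a run of pyrimidines, and a start base C with at least 4 further C or T was found in 316 tested genes. Of these 21.2% fell and 12.7% rose, beside 15.3% and 17.6% of the 9812 genes without it, and it was found in 3.01% of all genes with a promoter window. A start site in RefSeq can lie some bases from the one used in these cells. The 15 bases on each side of the start are printed for the 5 falling genes with the smallest adjusted p that carry the run, with the run in capitals.
Acsl3 (chr1:78657810-78657839, plus strand): ccaatgggcggcggtCTCTTTgcatatgca
Paip1 (chr13:119428585-119428614, plus strand): accgtcagtctcgcaCTTTTCTCCggaggg
Hsd17b12 (chr2:94157895-94157924, minus strand): ctttttttttttttcCTTCCCCattcaccg
Chfr (chr5:110135815-110135844, plus strand): gcgtaccgctctgctCCCCTCCCCCTCgcc
Ppp2r5a (chr1:191397027-191397056, minus strand): gcacgcgcaccgagtCCCCCCTCacccgaa

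Acsl3 was described above. Paip1, which binds the poly(A)-binding protein, stood at 5921 and 5972 against 3573 and 3599.9, Hsd17b12, an enzyme of fatty acid elongation, at 7581 and 7459.9 against 4956 and 4801, Chfr, a ubiquitin ligase of mitotic entry, at 2558 and 2549 against 1329.7 and 1489.9, and Ppp2r5a, a regulatory subunit of phosphatase 2A, at 3387 and 3149 against 1993 and 1986. None of these 5 encodes a ribosomal protein. Of the other letters searched, the E-box CACGTG was in 1182 tested genes, of which 20.5% rose and 13.5% fell. Of the tested genes without it 17.1% rose and 15.7% fell, and 8.09% of all genes with a window carried it. The sterol element TCACCCCAC or TCACGCCAC was in 95, of which 16.8% rose and 25.3% fell, beside 17.5% and 15.4% of those without it (0.755% of all genes with a window). The amino acid response element TGATGNAAN was in 275, of which 13.5% rose and 18.9% fell, beside 17.6% and 15.4% of those without it (4.5% of all genes with a window). Genes can carry more than 1 of these, and the sets share members.

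Cytoskeletal genes were also called both ways. Tubulins and their chaperones had 9 of 26 lower and 3 higher, with Tubb2b at 10260.0 and 11353 against 6931 and 6924 and Tubb2a at 8674 and 9723 against 6169 and 5949, near-identical beta tubulins whose reads may be shared. Tubgcp6, of the gamma-tubulin ring, was one of the risers, at 1865 and 1820.2 against 2584 and 2683. Kinesins and dyneins had 23 of 56 higher and 5 lower (by limma 6 lower, and 3 without knockdown library b). Microtubule-associated proteins and stathmins had 7 of 28 higher and 8 lower (by limma 8 higher, 5 without knockdown library a, and 9 lower, 5 without b). The dynein heavy chain Dync1h1 stood at 10200.5 and 10177 against 14993 and 15219, and the neuronal kinesin Kif5a at 3709.8 and 3485 against 5708 and 5896, and they rose by 0.57 ± 0.05 and 0.69 ± 0.07 in the authors' deposited table. Ndel1, which regulates dynein, stood at 2356 and 2194 against 1294 and 1319 and fell by 0.80 ± 0.09. Of 50 actin regulators 13 fell and 8 rose (by limma 12 higher, and 7 without knockdown library b). The actin-severing gelsolin Gsn (4705 and 4685 against 2998 and 3140.0) and the calponin Cnn2 (2499.6 and 2386 against 1380.2 and 1353) were lower, and the nonmuscle myosin Myh9 (15583 and 15889 against 22214 and 21699) was higher.

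Neuronal genes were called in both directions. The vesicle proteins Sv2c (3106 and 3113 against 5271 and 5430.0) and Syn2 (3446 and 3199 against 5713 and 5815) rose by 0.78 ± 0.07 and 0.79 ± 0.07 in the authors' deposited table, within a synaptic list of 14 higher and 6 lower of 55 (by limma 10 lower, and 6 without knockdown library a). Stmn2, a microtubule-destabilising protein of axons, stood at 17164 and 15440.3 against 10484 and 10319 and fell by 0.65 ± 0.06, and Map2, of dendrites, stood at 1883 and 2173 against 1328 and 1353 and fell by 0.60 ± 0.10. Catecholamine and acetylcholine genes had 5 of 11 lower and none higher. Gch1, which makes the cofactor of tyrosine hydroxylase, stood at 3402 and 3680.2 against 2508 and 2499, Ache, acetylcholinesterase, at 822 and 777 against 525 and 502 and Th, tyrosine hydroxylase, at 136 and 154 against 63.1 and 76.2. The nicotinic receptor subunits Chrna3 (2759 and 2534 against 3616 and 3516) and Chrna7 (176 and 155 against 283 and 302) rose by 0.43 ± 0.08 and 0.82 ± 0.22 in the authors' deposited table. Among voltage-gated channels 9 of 55 rose and 6 fell (by limma 12 higher, and 7 without knockdown library a), with the sodium channel subunit Scn3a (822 and 944 against 545 and 539) lower and the T-type calcium channel Cacna1i (757 and 795 against 1236 and 1206) higher.

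Surface and signalling genes showed single members far from control within mixed lists. Itgb3, integrin beta 3, stood at 2341 and 2455 against 997 and 1006 and fell by 1.26 ± 0.09 (adjusted p 7.61e-40), whereas its ligand fibronectin, Fn1, stood at 14144 and 13627 against 21248 and 21612 and rose by 0.63 ± 0.05 in the authors' deposited table. Basement membrane genes, Hspg2 (0.75 ± 0.07) and Lamc1 (0.46 ± 0.05) also rose, and the whole list had 11 of 53 higher and 6 lower (10 lower by limma on all libraries, and 6 without knockdown library a). The atypical cadherins Celsr3 (3213 and 3451 against 5389.6 and 5082) and Celsr2 (683 and 727 against 1224 and 1154) rose. Plxna4, a semaphorin receptor, stood at 2156 and 1967 against 3598 and 3584 (0.80 ± 0.08) and its relative Plxnc1 at 1445 and 1365 against 752 and 899 (-0.77 ± 0.12). In the TGF-beta and BMP pathway 13 of 32 rose and 4 fell: the corepressor Ski and the transducer Smad3 rose by 0.61 ± 0.10 and 0.79 ± 0.16, and Bambi, a decoy receptor, fell by 0.62 ± 0.11. Insulin and IGF signalling had the receptor Igf1r higher, at 2140.2 and 2111 against 3641 and 3453, and the binding protein Igfbp5 lower, at 1728 and 1685 against 868 and 899. Nfkb2 stood at 822 and 784 against 1630.0 and 1448 and rose by 0.94 ± 0.11, and Tnfaip2, a TNF-induced gene, stood at 916 and 875 against 356 and 405 and fell by 1.24 ± 0.14 in the authors' deposited table. Clock genes had 6 of 20 lower and 2 higher (10 lower by limma on all libraries), with the repressor Nr1d2 at 2936 and 3134 against 1814 and 1799.9 (-0.75 ± 0.08).

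Some families had a called share below the 32.6% of all tested genes, which is not matched for level. Genes named in the Zfp series, drawn as Kruppel-type although not all of them are, had 54 of 330 higher and 16 lower, with a median of 0.10. By limma 25 were lower, and 16 without knockdown library b. Zfp423, a factor of neural precursors, stood at 822 and 900.2 against 1511 and 1445 (0.78 ± 0.11). Homeobox and other identity factors had 6 of 33 higher and 1 lower, with the T-box factor Tbx2 at 524 and 600.1 against 1171 and 1027 (0.97 ± 0.13). The Notch pathway had 5 of 28 higher and none lower. Small nucleolar, Cajal body and micro RNA genes had 4 of 91 higher and 4 lower, with 12 lower by limma on all libraries, 7 without control library a and 6 without knockdown library a. These lie inside host genes whose reads they can share, and their values are uncertain. Of imprinted and long noncoding RNAs, Mest stood at 27827 and 27826 against 19338 and 19178 (-0.53 ± 0.05) and the paternally expressed Dlk1, from the same imprinted cluster as Meg3, at 1317 and 1357 against 1812 and 1732 (0.41 ± 0.09).

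The share of called genes depended on level. In the 20% of tested genes with the lowest mean, 2.30% rose and 7.14% fell, and in the 20% with the highest, 30.7% rose and 21.6% fell, while the median SE of the log2 fold change went from 0.40 to 0.07. By gene span (exons and introns, RefSeq), 10.3% rose and 16.6% fell in the shortest 20% of genes, and 22.2% rose and 13.6% fell in the longest. The span bins differed in level too, with a median mean count of 512 in the shortest and 1319 in the longest. The part of level in these shares was not tested. The median log2 fold change was -0.05 in the shortest and 0.04 in the longest bin. The same medians for control library a against b were -0.03 and 0.02, so a difference of this kind and sign also stood between the 2 controls, and its part in the result was not tested. For knockdown library a against b they were 0.01 and -0.00. Among protein-coding genes 17.8% of 12128 rose and 15.9% fell. Of 419 long noncoding RNA genes 3.10% rose and 5.49% fell, at a median mean of 73.9 against 1117 for coding genes. Chromosome X had 445 tested genes, of which 10.3% rose and 19.1% fell, with a median log2 fold change of -0.10, the lowest of the chromosomes.

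**Figure D4:**
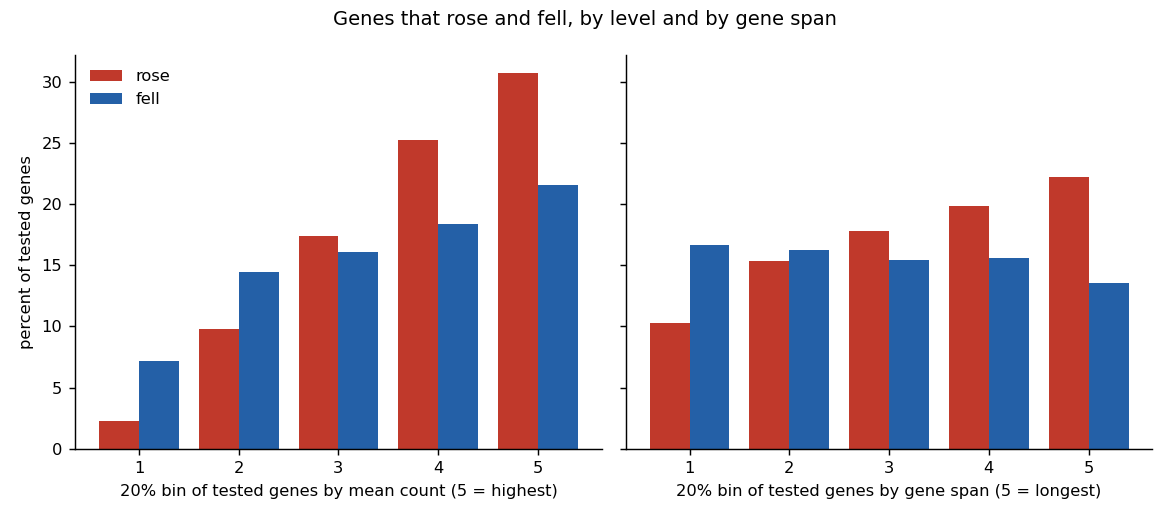
Bars give the percent of tested genes that rose (red) and fell (blue) in bins of 20% of the tested genes, by mean normalized count on the left and by gene span on the right. Both shares climb with level, to 30.7% and 21.6%, and only the share that rose climbs with gene span, from 10.3% to 22.2%. The bins of gene span were not matched for level.

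The neighbours of Emg1 on chromosome 6 were taken by position. Emg1 lies at chr6:124704370-124712186 (GRCm38.p6). Phb2, a prohibitin of the inner mitochondrial membrane, starts 0.103 kb beyond it and stood at 6561 and 6497 against 6441 and 6004, with a log2 fold change of -0.07 ± 0.06 in the authors' deposited table (adjusted p 0.429). The 95% interval of this difference ran from -0.19 to 0.05. On the other side, the annotated span of Lpcat3, an enzyme of phospholipid remodelling, overlaps that of Emg1, so reads of the shared stretch may have been counted for either gene and its value is uncertain. Lpcat3 stood at 1992 and 1987 against 1257 and 1298 and fell by 0.64 ± 0.09 (adjusted p 6.58e-11). Of the 10 nearest genes on each side, 18 were tested, of which 5 fell and 1 rose (33.3%, beside 32.6% of all tested genes). Atn1, a nuclear corepressor, stood at 1835 and 1985 against 3217 and 3040.2 and rose by 0.71 ± 0.08, and the glycolytic enzymes Eno2 (4045 and 3969 against 2743 and 2867) and Tpi1 (18789 and 17962 against 14635 and 14954) fell in the authors' deposited table. C1s1, a complement protease, fell from 317 and 273 in control to 187 and 181 in knockdown libraries, and Cdca3 had an adjusted p of 0.0326 and was no longer called by limma without knockdown library b.

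**Figure D5:**
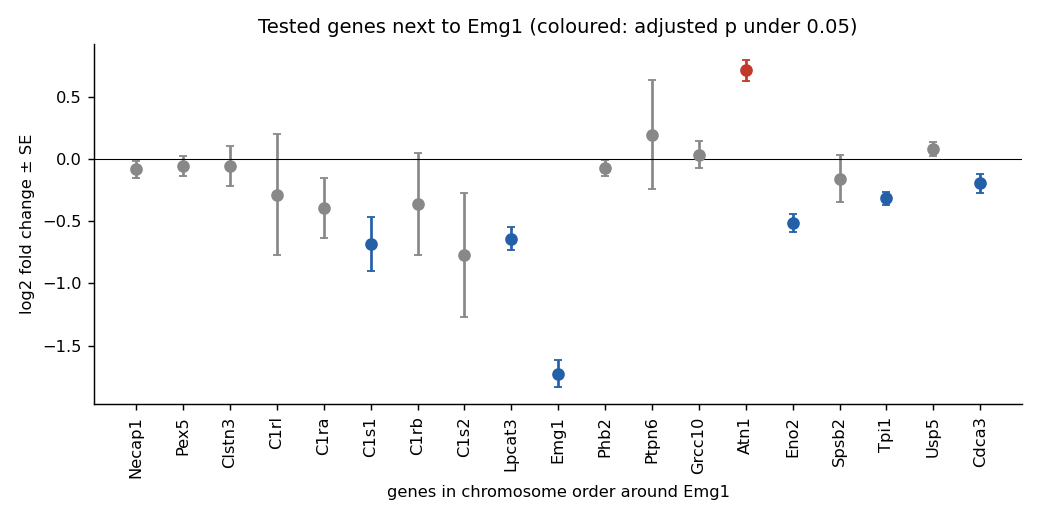
Log2 fold change (y axis, bars are SE) of the 18 tested neighbours and of Emg1, in chromosome order on the x axis; coloured points passed an adjusted p of 0.05. Emg1 stands at -1.73, and Phb2, the nearest gene that does not overlap it, at -0.07.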

How the data were processed

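Input RNA of 4 libraries was compared, 2 siEmg1 and 2 siCtrl. Trimmomatic, HISAT2 and DESeq2 are the tools and mm10 the build listed in the submitters' processing notes. Versions, read counter, strand setting and annotation are not stated there. The authors' deposited table gives a mean normalized count (a signal, per the file headers), a log2 fold change with SE (log2 values), a Wald score, a p-value and an adjusted p. The 3472 genes without an adjusted p were not called.

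The counts per library are not printed in the table. They were reconstructed: low means are whole multiples of 4 units, which give the size factors. A lattice search (sympy 1.14.0) found whole-number counts for all 16279 genes. The deposited log2 fold changes were met within 1e-04 in 15984 of 15984 genes counted in both conditions. The search itself used these fold changes, so this is no independent check. Size factors were 1.51 and 1.11 in control and 0.793 and 0.761 in knockdown libraries. The search was also run on simulated counts. These were all even, unlike part of the real ones, so that run does not test genes with odd counts. Of the 16279 genes, 12336 had 1 solution, and elsewhere the one nearest the deposited values was taken. For Rn45s, Uchl1 and Lars2 it was not 10 times nearer than the next; values for Rn45s could differ by up to 0.636%, and no values per library are given for the other two. Which library is replicate 1 is unknown. A normalized count is a count divided by the size factor.

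Calls are the authors' adjusted p under 0.05. Changes beyond 1.5-fold were tested from the deposited fold changes and SE (normal, Benjamini-Hochberg). The alternative was limma 3.58.1 (R 4.3.3) with a trend on log2(normalized count + 1), without a count model. Scripts ran under Python 3.11.15 with scipy 1.17.1, pandas 2.3.3, numpy 2.4.6 and matplotlib 3.10.9. Gene span replaced the planned protein length, which was not used here. RefSeq (GRCm38.p6) matched 16228 genes, and no sequence from chromosome 18 was searched.

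Named genes were Emg1 and its partners, the 25 largest rises and falls among called genes with a mean of 100 or more, unnamed predicted genes left out, the 12 lowest and highest Wald scores, the 15 highest means, the 10 nearest genes on each side of Emg1, and from each list up to 4 members of smallest adjusted p plus the largest rise and fall that passed. The 5 genes printed for each set of promoter letters were chosen by smallest adjusted p after the search. Comparison, members and lists were chosen with earlier results of these data known. Some members of the lists are not reported here.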

Additional observations from a re-analysis of the deposited data

How the results depend on the processing

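By the authors' adjusted p, 2983 genes were called under 0.01 and 4965 under 0.1, beside 4174 under 0.05. The count was 3968 when adjusted over every gene with a p-value, 4165 among genes with a mean of at least 100 and 4141 after centring on their median of 0.01. With limma on reconstructed values, an alternative chosen after seeing the data, 5570 genes were called, among them all 4174. Leaving out 1 library at a time gave 3986 to 5624 genes (1934 to 2955 higher, 2052 to 2669 lower), with the lone library of a group assumed to vary like the other group. The lowest counts came without knockdown library a (3986) and b (4068), of which 3354 and 3403 were among the 4174. Changes beyond 0.32 on the log2 scale numbered 494 and beyond 2-fold 10, beside 89 beyond 1.5-fold. Within 1.2-fold lay 2032 genes, beside 3273 within 0.32 on the log2 scale, and 4030 with a 90% interval. The number of lists with a median below 0 was 35, 34 with a mean of at least 100 and 39 after centring. The difference of medians between the longest and shortest 20% of genes by span was 0.09, and 0.10 with a mean of at least 100. Of 455 named genes called, limma without knockdown library a or b no longer called 19 in each case, without control library a 1 and without control library b 4, and no direction changed. Leaving out 1 library could not reverse a called gene, because the normalized counts of the groups overlapped in none of them. Many of the named genes were chosen by adjusted p, Wald statistic or size of change, so few losses were likely in advance. Which library has which replicate number is unknown, so a replicate block was added in limma under both possible pairings, chosen after seeing the data. It gave 5399 genes (2741 higher, 2658 lower) with control a paired with knockdown a, and 6306 (3220 higher, 3086 lower) with control a paired with knockdown b, beside 5570 without the block. Protein length was not run. Precision is limited at low counts, where the median SE was 0.40 in the 20% of genes with the lowest mean.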

Other observations

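Cell cycle brakes and death regulators were called in both directions. Of 22 CDK inhibitor, pocket protein and related genes 6 fell and 5 rose (by limma 6 higher, and 3 without knockdown library a), and Ccng2, a cyclin of cells leaving the cycle, stood at 1663 and 1576 in the control libraries and 737 and 815 in the knockdown libraries, with a fall of 1.06 ± 0.11 on the log2 scale in the authors' deposited table (adjusted p 9.61e-21). Mdm4, an inhibitor of p53, stood at 4477 and 4286 against 3079.6 and 3219 and fell by 0.48 ± 0.07. Apoptosis regulators had 7 of 32 lower and 2 higher (11 lower by limma on all libraries, and 6 without knockdown library a). Casp9, an initiator caspase, stood at 1124 and 1186 against 777 and 712 and fell by 0.63 ± 0.12, and Mcl1, a survival protein, stood at 5093 and 5423 against 6644 and 6806 and rose by 0.36 ± 0.06. In the Hedgehog list the ligand Dhh stood at 266 and 304 against 129 and 149.8 and fell by 1.03 ± 0.23, and Disp1, which releases such ligands, rose by 0.33 ± 0.09. Among RNA sensors, Oas1a stood at 421 and 416 against 159 and 171 and Tlr3 at 111 and 139 against 58 and 44.7, both lower, and Mb21d1, the DNA sensor cGAS, stood at 221 and 226 against 336 and 357 and rose by 0.63 ± 0.19 in the authors' deposited table. Nes, the intermediate filament of neural precursors, stood at 3682 and 3086 against 4701 and 4572 and rose by 0.45 ± 0.08, within a list of 6 higher and none lower of 11.

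The reconstructed counts were even in all 4 libraries for 88.4% of the 16279 genes. The share was 98.8% at means under 100, 90% from 100 to 1000 and 50.4% at means of at least 10000, and the lowest total of a gene was 6. In 295 genes counts were present in 1 condition only.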
